A study of Mus musculus with 6 samples.

Results

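Spi1, Spib and Spic, genes of the ETS family, were examined among 21883 protein-coding mouse genes; they are the 3 members of the SPI subfamily, and they were chosen by name. Each locus was taken as the gene body with 10 kb on either side, and the deposited open chromatin peaks that overlapped it by at least 1 bp were collected in every library. The 6 libraries came from blood monocytes and were made by ATAC-seq, an assay that tags open chromatin with a transposase (Tn5) loaded with adapters. The 3 libraries named DTR were from thrombocytopenic mice of genotype PF4cre-iDTR that received diphtheria toxin. The other 3, named WT, were from wild type mice that also received the toxin, so toxin exposure was shared by both groups. In PF4cre-iDTR mice the platelet factor 4 promoter drives Cre, and Cre switches on the toxin receptor, in megakaryocytes and platelets, which makes those cells sensitive to the toxin; the receptor is absent from the wild type controls, so genotype and platelet loss cannot be told apart. The labels give no age, sex or pooling, and they do not say whether each library came from a separate animal, so the p-values measure the spread between these libraries.

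Spi1 encodes PU.1, the ETS factor that directs haematopoietic progenitors towards monocytes, macrophages and B cells, and monocytes depend on it throughout their life. PU.1 binds purine-rich DNA with a GGAA core, opens chromatin at macrophage enhancers together with C/EBP, IRF and RUNX factors, and is itself controlled by an upstream enhancer that PU.1 binds. Spib encodes Spi-B, a relative that binds nearly the same sites and works in B cells and plasmacytoid dendritic cells. Spic encodes Spi-C, which is needed for the red pulp macrophages of the spleen that recycle iron and can be induced in monocytes by heme.

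RefSeq promoter entries of build GRCm38.p6 were matched for Spib and Spic, and the 250 bases before each transcription start are shown because the peak lists treat these 2 starts in opposite ways. Both sequences run 5′ to 3′ on the strand of the gene, and capitals mark the ETS core, which reads GGAA on the other strand.
Spib promoter, chr7:44532072-44532321, minus strand: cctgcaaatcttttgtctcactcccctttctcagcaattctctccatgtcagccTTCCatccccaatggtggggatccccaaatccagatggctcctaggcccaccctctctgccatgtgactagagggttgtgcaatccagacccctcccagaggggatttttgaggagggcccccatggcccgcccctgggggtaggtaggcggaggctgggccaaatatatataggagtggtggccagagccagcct
Spic promoter, chr10:88683024-88683273, minus strand: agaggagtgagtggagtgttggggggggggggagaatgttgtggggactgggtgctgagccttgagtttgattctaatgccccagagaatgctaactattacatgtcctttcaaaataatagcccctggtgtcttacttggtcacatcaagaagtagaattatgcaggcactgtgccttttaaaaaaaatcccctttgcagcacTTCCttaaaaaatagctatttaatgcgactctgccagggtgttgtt

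The Spic promoter was under a peak in all 6 libraries, and the Spib promoter was under none. Of the 300 bases from 250 before to 50 after the start, a peak covered 300 at Spic in 5 libraries and 285 in WT 3. At Spib the covered number was 0 of 300 in every library. The nearest Spib peak lay 2042, 2074 and 2002 bp from the transcription start in the DTR libraries and 2002, 2027 and 2027 bp in the WT libraries. For comparison, 41.1% of 32851 promoter windows overlapped a peak in all 6 libraries and 55.7% overlapped one in none.

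Both promoters held a single GGAA core. It stood 196 to 193 bases before the start at Spib and 46 to 43 bases before it at Spic, and 93.4% of all promoter windows of the same length held one. The longer ETS word GGAAGT, counted on both strands, occurred 1 time at Spic and 0 times at Spib, and 19.7% of promoters held it. Neither promoter held GAGGAAGT, the extended PU.1 word (2.44% of promoters), nor the composite ETS-IRF element, an ETS core followed by an IRF half-site (2.3% of promoters). The GC-box word GGGCGG occurred 1 time at Spib and 0 times at Spic, against 32.7% of promoters. The E-box CANNTG occurred 2 times at Spib and 0 times at Spic, against 66.2%, and TGCTGA, a MAF half-site, 1 time in each, against 16.1%. The octamer ATGCAAAT, the AP-1 word TGANTCA, the RUNX word TGTGGT and the TATA word TATAAA each had 0 matches in both. Only the words given were searched, so variants of them, such as other TATA sequences, were not counted. GC content was 58% at Spib and 44.8% at Spic, with a median of 52.4% over all promoters. These matches describe letters in the reference and were not read as bound sites.

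Peaks of the 6 lists were merged wherever they overlapped or touched, which gave 19 regions at the 3 loci, 13 at Spi1, 4 at Spib and 2 at Spic. Of these, 18 had a peak in all 6 libraries, while 74.1% of the 92712 merged regions of the genome did. Regions listed by every DTR library and by no WT library numbered 0 at these loci, as did the opposite kind, against 0.821% and 0.0992% of all regions. Distances below are measured along the chromosome from the gene body, since transcript and exon models were not used here.

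**Figure D1:**
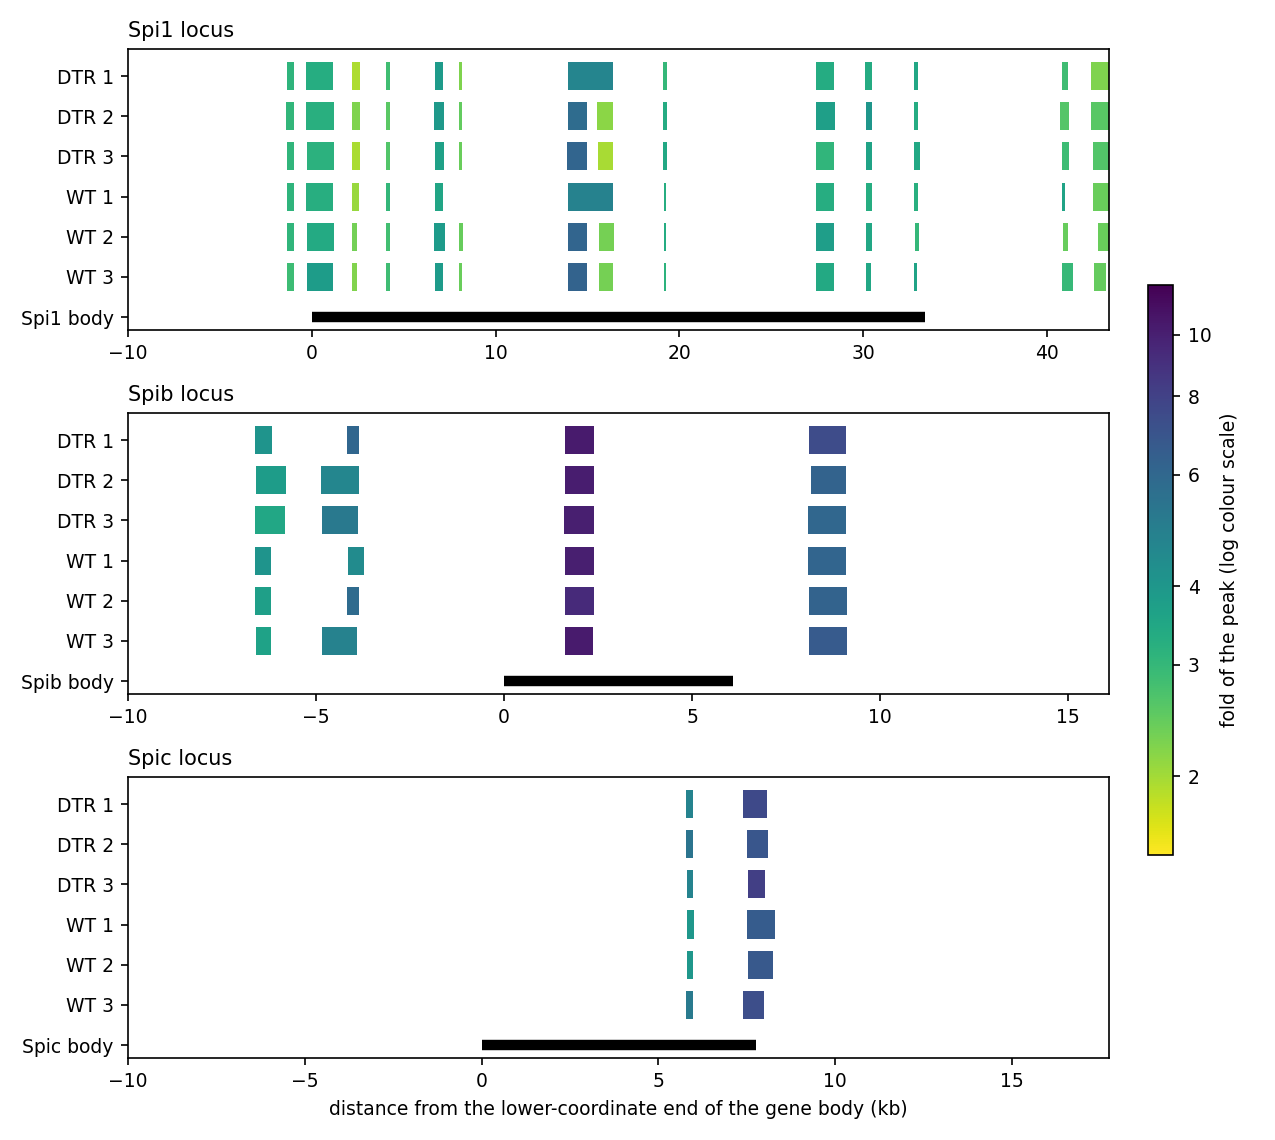
Peaks at the Spi1, Spib and Spic loci in each of the 6 libraries. The horizontal axis is the distance in kb from the lower-coordinate end of the gene body, each row is a library, each bar is a deposited peak drawn to scale, the black bar is the gene body, and the colour is the fold of the peak on a log scale; the 13 Spi1 regions have lower fold than the Spib peak inside the gene body, and the Spib and Spic maps hold 4 and 2 peaks in every library.

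Spi1 had a dense peak pattern. The number of peaks at its locus was 13, 14 and 14 in DTR 1 to 3 and 12, 14 and 14 in WT 1 to 3. The groups overlapped in number (exact permutation p of 1), as they did at most genes, where 2.98% of 16827 were apart and higher in DTR and 0.345% apart and lower. Peaks covered 16.2%, 15.6% and 15.2% of the locus in the DTR libraries and 15.1%, 14.03% and 14.2% in the WT libraries. In mean covered share, 97.2% of all 21883 protein-coding genes, those without a peak included, lay below Spi1, and the median gene had 3.66% of its locus under peaks. Within the 13 regions, 10 lay in the gene body, 1 lay 967 bp before it and 2 lay 7301 and 9016 bp past its upper end, inside the body of Mybpc3, a cardiac muscle myosin-binding protein gene whose body begins 2354 bp from Spi1.

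The widest Spi1 region, chr2:91096277-91098783, lay inside the gene body and had the highest fold of the locus. The fold is the enrichment of a peak over the local background as the authors' peak caller gave it. Averaged over the peaks of the region by length, it was 4.66, 4.15 and 4.33 in the DTR libraries and 4.77, 4.47 and 4.59 in the WT libraries. The groups overlapped. DTR 1 and WT 1 each held this region as 1 peak, of 2477 and 2490 bp, whereas each of the other 4 libraries held it as 2 peaks, a strong one of 1035 to 1079 bp followed by a weak one of 771 to 866 bp. The strong peaks had fold 5.81 to 6.25 and the weak ones 1.96 to 2.32, so the peak count of the locus differed between libraries of the same group.

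The region at the lower end of the Spi1 gene body, chr2:91082066-91083596, was a single peak of 1446 to 1531 bp in every library. Its fold was 3.30, 3.22 and 3.19 in DTR and 3.25, 3.39 and 3.83 in WT. WT 3 was the highest library. A single Spi1 region was missing from a library, chr2:91090375-91090566, a peak of 154 to 188 bp that was listed in 3 DTR and 2 WT libraries and not in WT 1. Which of the Spi1 regions hold the main promoter and the upstream enhancer was not determined here, because no promoter entry was matched for Spi1.

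Spi1 peaks combined low fold with high confidence. To place each shared region, its mean fold and mean −log10 q over the 6 libraries were set beside the genome's shared regions with a fold within 10% of it. The region at the lower gene end had a mean fold of 3.36 and a mean −log10 q of 126, where regions of like fold had a median of 8.90, and 98.9% of them had a lower value. The widest region had a mean fold of 4.50 and a −log10 q of 170, above 98% of regions of like fold. The −log10 q of a region was that of its most confident peak, whereas its fold was averaged over its peaks by length. Where a library held the widest region as separate peaks, the weak peak therefore lowered the fold and not the −log10 q. The first 5 regions of the locus, together with that at chr2:91101501-91101674, followed the same pattern, with 89.1% to 98.9% of like regions below them. The 3 regions in the upper part of the gene body were near the middle, with 56.2% to 62% below, and the 2 in Mybpc3 were low, with 31.1% and 11.3% below. At Spib the corresponding shares ran from 23.7% to 74.5%, and at Spic they were 20.2% and 23.9%.

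**Figure D2:**
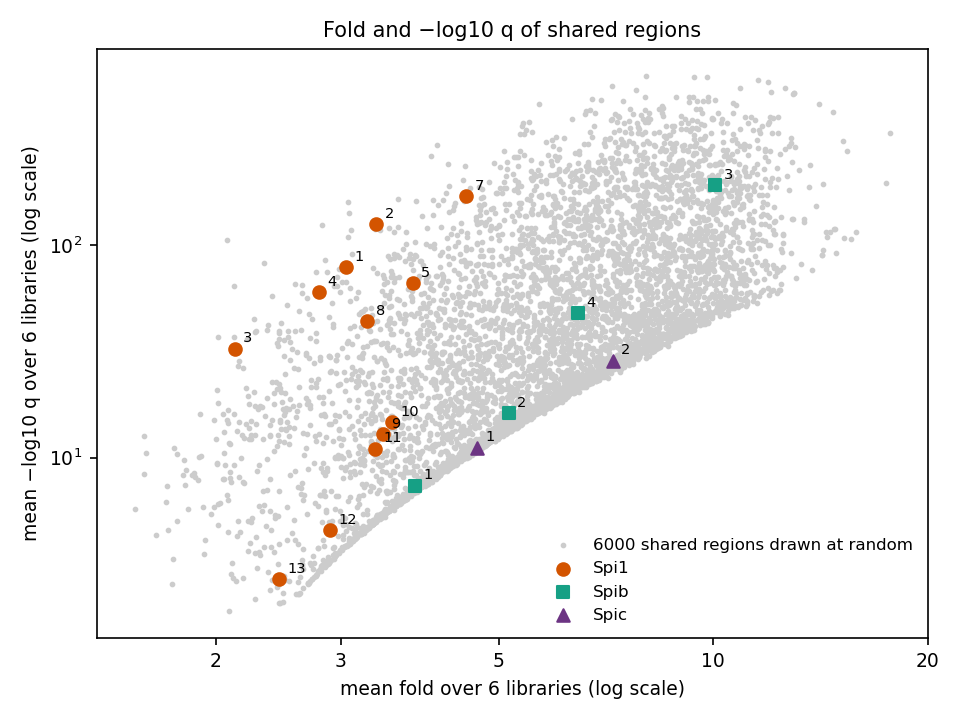
Mean fold (horizontal, log scale) against mean −log10 q (vertical, log scale) of regions shared by all 6 libraries. Grey points are shared regions drawn at random, and coloured symbols, numbered in order along each locus, are the 18 shared regions of Spi1, Spib and Spic; Spi1 regions 1 to 5, 7 and 8 sit near the upper edge of the grey points at their fold, and the Spic regions sit low.

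Spib was organised differently, with 4 peaks in every library. Only 1 of them was inside the gene body, at chr7:44527597-44528396, and it was the strongest of all 18 shared regions. Its fold was 10.4, 10.2 and 10.1 in DTR and 10.1, 9.37 and 10.3 in WT, which placed it between the 89.6th and 94.6th percentile of its own list. Its width was 775, 791 and 783 bp in DTR, against 778, 773 and 754 bp in WT. The groups overlapped in both measures, and in these all 6 libraries were close together. Its −log10 q was 204, 198 and 219 in DTR and 188, 157 and 188 in WT, without overlap. Spi1 regions 5 and 10 were also apart and higher in DTR in −log10 q. How often this held over all shared regions was not computed, so a general shift cannot be told apart from one at these regions. Depth is unknown, and the DTR lists were longer.

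The other 3 Spib regions lay in the bodies of the neighbouring genes. The 2 on the lower side were in Mybpc2, a skeletal muscle myosin-binding protein gene, at chr7:44519370-44520192 and chr7:44521129-44522259. The other was in Pold1, which encodes the catalytic subunit of DNA polymerase delta, at chr7:44534074-44535099 and 1986 bp past the Spib body. A peak in a neighbour's body cannot be assigned to either gene from position alone. Fold at the Pold1 region was 7.44, 6.24 and 6.04 in DTR and 6.14, 6.24 and 6.66 in WT, with DTR 1 the highest library.

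Spic had 2 peaks in every library. The stronger, chr10:88682649-88683578, spanned the upper gene end and the promoter shown above, with fold 7.57, 6.91 and 8.17 in DTR and 6.59, 6.78 and 7.32 in WT. DTR 1 and DTR 3 were the highest libraries, and the groups overlapped. The weaker, chr10:88681058-88681264, lay in the gene body and was 178 to 199 bp wide, with fold 4.75, 5.38 and 4.73 in DTR and 4.003, 3.997 and 5.12 in WT. WT 3 fell among the DTR libraries. The only neighbours within the Spic window were the pseudogenes Gm29807 and Gm46192.

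The first comparison between the groups used the locus as a whole and an exact two-sided permutation test over the 6 libraries, whose smallest possible p is 0.1 with 3 against 3, so no locus value could pass 0.05. Whether groups overlapped was read against the share of all genes whose groups did not.

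At Spi1, more of the locus was under peaks in each DTR library than in any WT library. Covered length was 8659, 8341 and 8098 bp in DTR and 8047, 7488 and 7595 bp in WT, and the lowest DTR library lay above the highest WT library. The means were 8366 ± 281 bp (SD, n = 3) and 7710 ± 297 bp (SD, n = 3), which differ by 656 bp (exact permutation p of 0.1). Non-overlap in this direction was common, since 19.3% of 16827 genes with a peak had it and 0.85% had the opposite. The DTR lists were also longer, with 81530 to 83993 peaks against 77825 to 80437, and the part of list length in this difference was not tested directly. When every list was reduced to its 77825 strongest peaks, the difference became -171 bp, with an exact permutation p of 0.9. That step removed the peak at chr2:91124776-91126216 from DTR 1, and from DTR 2 the peaks of the same and the neighbouring Mybpc3 region, and no other peak of the 3 loci. Inside the Spi1 gene body alone the difference was 345 bp (exact permutation p of 0.4). The median peak width at Spi1 was 392, 468 and 418.5 bp in DTR and 395, 357.5 and 424.5 bp in WT, so the groups overlapped (exact permutation p of 0.5). In bulk libraries a site open in more cells and a site more open in each cell cannot be told apart.

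Fold at Spi1 was lower in each DTR library than in any WT library. To set libraries side by side, the length-weighted fold of the locus was divided by the library's median fold over all shared regions, which was 5.75 to 5.90 in DTR and 5.65 to 5.77 in WT. This relative fold was 0.586, 0.567 and 0.574 in DTR and 0.624, 0.616 and 0.620 in WT. All 3 WT libraries were nearly equal, and they lay above the DTR libraries. The means were 0.576 ± 0.00965 and 0.620 ± 0.00414 (SD, n = 3 each), so the difference was -0.0446 (exact permutation p of 0.1). Non-overlap of this kind was found at 18.7% of 16243 genes, with 3.19% in the opposite direction. With fold as deposited, 3.42, 3.35 and 3.30 in DTR stood against 3.53, 3.50 and 3.58 in WT, again without overlap, and on that scale 6.3% of genes were lower and 6.94% higher. The relative fold of Spi1 was low for a gene, since 1.18% of genes had a lower mean, and it was negative in difference under every setting tried. With lists of equal length the groups overlapped and the difference was -0.0199 (exact permutation p of 0.3).

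Spib and Spic differed less clearly, and in both the groups overlapped in every locus measure. The number of peaks was 4 at Spib and 2 at Spic in all 6 libraries. Spib covered length was 2495, 3564 and 3539 bp in DTR and 2658, 2540 and 3101 bp in WT. The median peak width there was 604.5, 881 and 870.5 bp in DTR and 605, 599.5 and 841 bp in WT (exact permutation p of 0.3). In covered length DTR 1 was the lowest library of all, and the difference of 433 bp had an exact permutation p of 0.4. Spib relative fold was 1.30, 1.03 and 1.07 in DTR and 1.18, 1.18 and 1.14 in WT (exact permutation p of 0.9), so DTR libraries were both the highest and the lowest.

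Spic covered length was 875, 785 and 666 bp in DTR, against 995, 888 and 797 bp in WT. The means were 775 ± 105 and 893 ± 99.1 bp (SD, n = 3 each), and the difference of -118 bp had an exact permutation p of 0.2. Relative fold at Spic was 1.19, 1.11 and 1.26 in DTR, against 1.08, 1.09 and 1.18 in WT. The difference was 0.0674, with an exact permutation p of 0.2. Spic peaks therefore had a narrower mean and a higher mean fold in DTR, the reverse of the Spi1 means, and neither difference reached beyond the spread of the libraries.

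**Figure D3:**
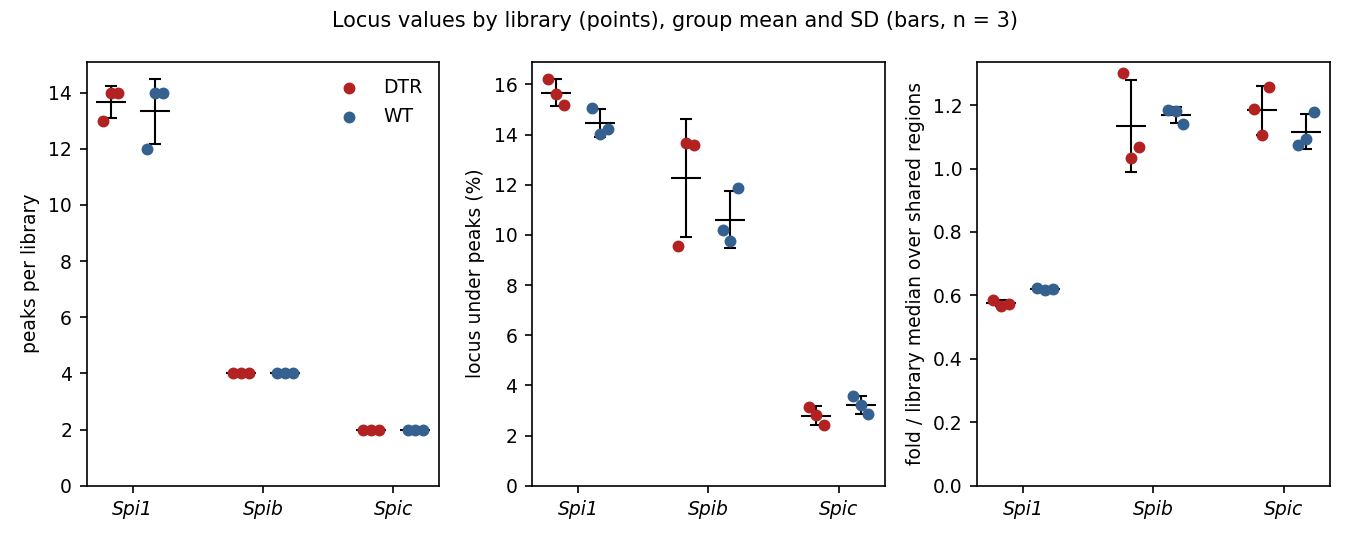
Number of peaks, percent of the locus under peaks and relative fold (fold divided by the library median over shared regions) at the 3 loci. Points are libraries, DTR red and WT blue, and bars give the group mean and SD (n = 3); the groups are apart at Spi1 for the covered share and the relative fold, and they overlap at Spib and Spic.

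The second comparison tested each of the 18 shared regions with limma, fitted on all 68681 shared regions with Benjamini-Hochberg adjustment over all of them. For fold, 0 of the 18 regions passed an adjusted p of 0.05 and 0 had an unadjusted p under 0.05. The genome had 0% called in either direction, although 7611 shared regions had an unadjusted p under 0.05. In DTR, 11 of the 18 regions had a lower and 7 a higher estimate, with a median difference of -0.01 on the log2 scale, against -0.02 over all shared regions. These estimates were centred on the library median. With fold as deposited, the median over all shared regions was 0.01.

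At Spi1, 10 of the 12 shared regions had a lower fold estimate in DTR when fold was centred on the library median. The count depended on that centring. With fold as deposited, the estimates of the regions starting at 91080965, 91089035, 91101501 and 91124776 lay above 0, at 0.0236, 0.0228, 0.0044 and 0.0317. How many of all shared regions had a lower estimate was not counted. The estimates farthest below 0 were those of 3 neighbouring regions, at the lower gene end and in the adjoining part of the body. At chr2:91086395-91086629 the relative fold was 0.486, 0.431 and 0.460 in DTR and 0.537, 0.495 and 0.497 in WT, without overlap. The limma log2 difference was -0.15 (95% interval -0.31 to 0.01) with an adjusted p of 0.464. At the lower gene end the relative fold was 0.566, 0.546 and 0.554 in DTR and 0.576, 0.597 and 0.663 in WT, also without overlap. The limma log2 difference there was -0.14 (95% interval -0.30 to 0.02) with an adjusted p of 0.498. These were the only 2 of the 18 regions whose groups did not overlap in relative fold, where 11.6% of all shared regions were lower and 6.58% higher in that way. On fold as deposited, 0 of the 18 were apart, beside 5.1% lower and 10.5% higher among all shared regions.

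At the widest Spi1 region the log2 fold difference was -0.11 (95% interval -0.26 to 0.05), with a limma adjusted p of 0.583. The strong Spib peak in the gene body gave 0.01 (95% interval -0.12 to 0.14), the narrowest interval of the Spib regions. The Spic promoter region gave 0.10 (95% interval -0.10 to 0.29) and the Spic body region 0.15 (95% interval -0.09 to 0.40). Both intervals include 0.

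For covered length, the median log2 difference of the 18 regions was 0.05, against 0.04 over all shared regions. In DTR, 15 of the 18 had a higher and 3 a lower estimate. None was called by limma, beside 0.192% of all shared regions called higher and 0.0233% called lower. An unadjusted p under 0.05 was reached by 2, both in the Spi1 gene body, beside 5116 of all 68681 shared regions. The first, chr2:91101501-91101674, was narrow and even within groups, with 172, 174 and 173 bp in DTR and 153, 152 and 158 bp in WT. Its log2 difference was 0.16 (unadjusted limma p of 0.00328, adjusted p of 0.283). The second, chr2:91084563-91084998, had 429, 425 and 429 bp in DTR and 391, 247 and 227 bp in WT, with WT 1 close to the DTR libraries. Its log2 difference was 0.61 (unadjusted limma p of 0.0365, adjusted p of 0.642). Without WT 1 it was 0.85 with a limma adjusted p of 0.0214. Leaving out the WT library nearest to DTR widens the gap. In that fit 449 of 69787 shared regions were called higher and 38 lower.

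The remaining region without overlap was the outer Spib region in Mybpc2, chr7:44519370-44520192. Its covered length was 434, 810 and 774 bp in DTR and 424, 426 and 418 bp in WT, so DTR 1 lay near the WT libraries. The log2 difference was 0.62 (limma adjusted p of 0.68). Without DTR 1 it was 0.91 with a limma adjusted p of 0.0339. Leaving out the DTR library nearest to WT again widens the gap. In that fit 78 of 69000 shared regions were called higher and 13 lower. The 3 of 18 regions without overlap in covered length were all higher in DTR. Among all shared regions, 13% were apart and higher in DTR and 1.86% apart and lower. The weak Spi1 region in Mybpc3 at chr2:91124776-91126216, with −log10 q of 1.83 to 3.64, had 1441, 1282 and 1174 bp in DTR and 1291, 793 and 698 bp in WT. Its log2 difference was 0.53, with a limma adjusted p of 0.683.

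**Figure D4:**
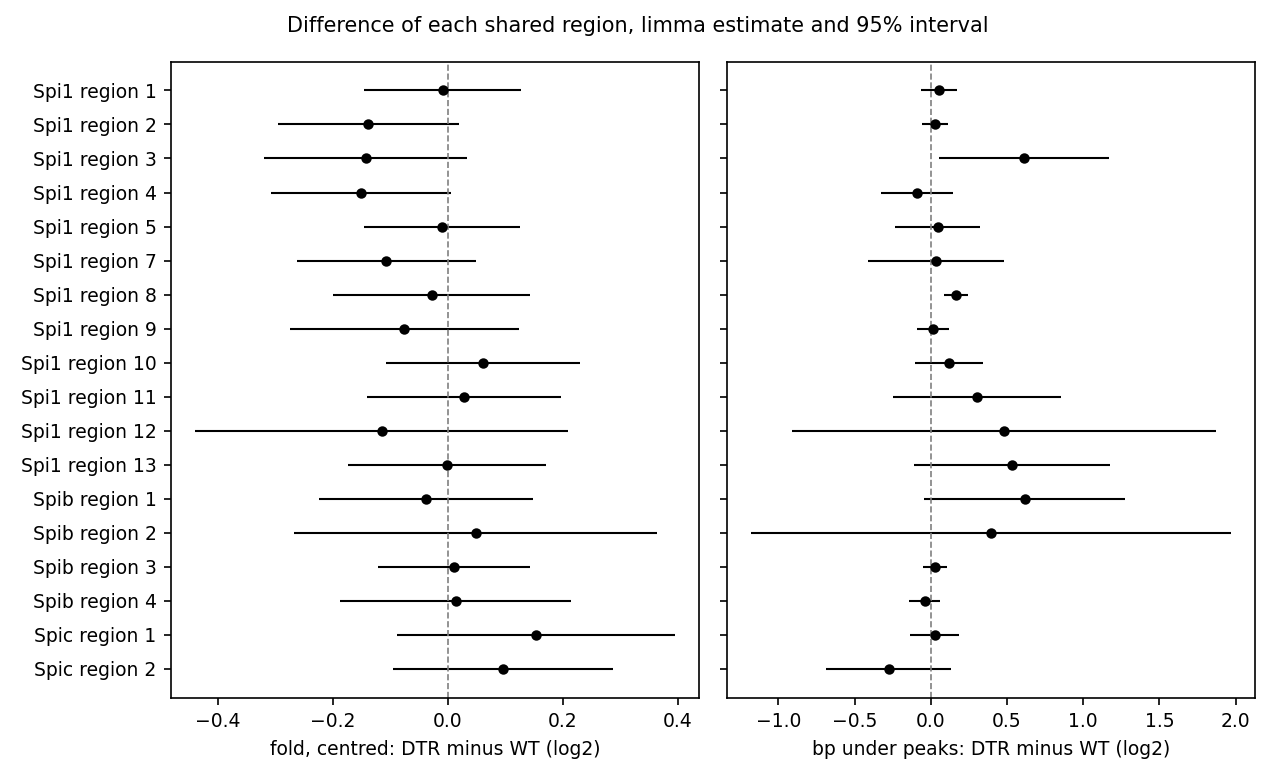
limma differences between DTR and WT (DTR minus WT, log2) for the 18 shared regions, numbered along each locus. The left panel shows relative fold and the right panel bp under peaks, points are estimates, lines are 95% intervals and the dashed line is 0; no region passed an adjusted p of 0.05, and intervals clear of 0 appear only for covered length at Spi1 regions 3 and 8.

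Among 26 ETS genes ordered by the mean share of the locus under peaks, Spi1 ranked 1, Spib 4 and Spic 21. Spi1 had 15.1%, above Erf, a repressor of the family, and Elf4, with 12.9% each. Every library of Spi1 lay above the mean of both genes. Spib had 11.4% and its libraries ran from 9.56% to 13.7%, a range that includes the means of Erf, Elf4, Elk3, Etv6 and Elf1. Spic had 3.01%, with libraries from 2.3996% to 3.58%, a range that includes the means of Spdef, Gabpa and Ehf, and Fev was last with 0.763%. At the gene ends, within 1 kb, Spi1 and Spic had a peak in all 6 libraries and Spib in 0, as had Fli1, Elf5 and Spdef. Over all protein-coding genes, 59% had a gene-end peak in all 6 libraries.

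**Figure D5:**
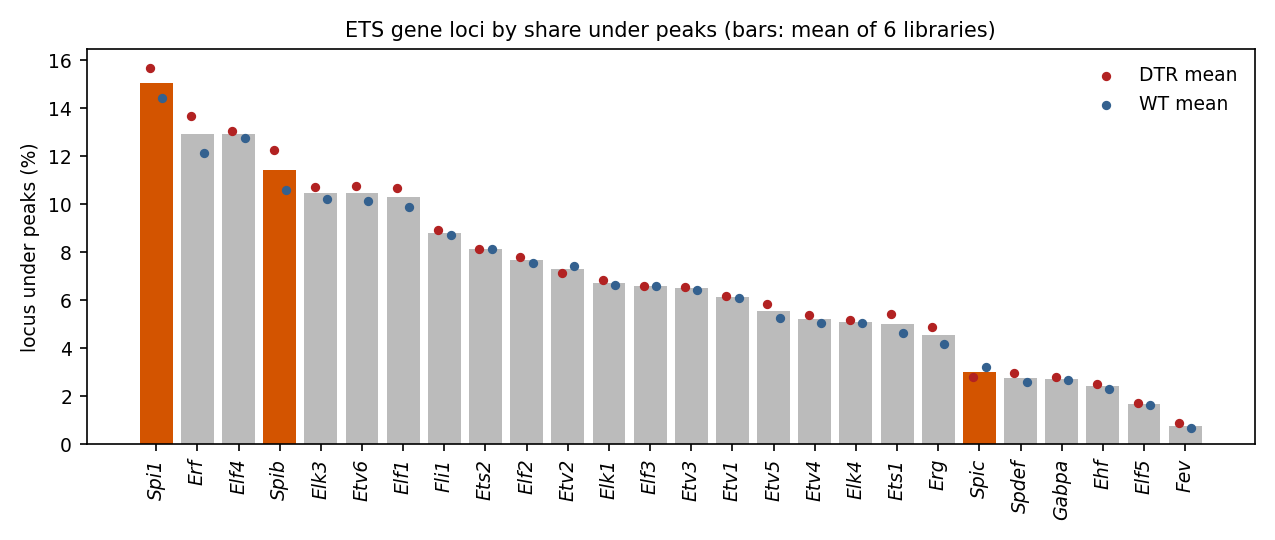
Percent of the locus under peaks for 26 ETS genes. Bars are the mean of 6 libraries, with Spi1, Spib and Spic in orange and other members in grey, and points are the DTR and WT means; Spi1 is first with 15.1%, Spib follows Erf and Elf4 with 11.4% and Spic has 3.01%.

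Likeness to other loci was measured as the root-mean-square difference, over the 6 libraries, of log2(percent of the locus under peaks + 0.1). The nearest genes to Spi1 were Sertad3 (0.0292), Klk1b11 (0.0374) and Zmynd10 (0.0378), and 234 genes lay within 0.1, so its pattern was shared widely. For Spib the nearest were Gnb2 (0.0996), Sox15 (0.117) and Gjd3 (0.118). Grm4 (0.0920), Aldh18a1 (0.1002) and Mrps25 (0.116) were nearest to Spic. For each of these 2 members, 1 gene lay within 0.1.

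The partners and regulators of PU.1 form a list of 20 genes, among them the C/EBP factors, Irf4 and Irf8, Runx1, and the antagonists Gata1 and Gata2. Of these, 19 had a gene-end peak in all 6 libraries, beside 59% of all protein-coding genes. The exception was Gata1, the erythroid and megakaryocyte factor that opposes PU.1, with 0. No region of the list was called by limma in fold or covered length. Relative fold was lower in DTR without overlap at 7 genes, Cebpa, Cebpe, Fos, Ikzf1, Irf8, Jun and Runx1, and higher at 0, of 19 compared. That is 36.8%, beside 18.7% of all genes lower and 3.19% higher, and the median log2 difference was -0.05 against -0.04 over all genes. With fold as deposited, Cebpe was the only one, beside 6.3% of all genes. DTR-only regions, listed by all 3 DTR and 0 WT libraries, numbered 2 of the 134 regions of the list, where 0.821% of all regions were of that kind. The first lay in the Gata1 body at chrX:7963870-7964085, with fold 2.77, 2.55 and 3.50 and −log10 q of 1.98 to 5.89. The second lay in Myb, a progenitor factor, at chr10:21135413-21135585, with −log10 q of 2.68 to 3.84. Both were weak peaks.

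All 25 target genes of PU.1 in monocytes had a gene-end peak in all 6 libraries, beside 59% of all protein-coding genes. This list holds receptors such as Csf1r and Itgam, phagocyte oxidase subunits and lysosomal genes. Relative fold was lower in DTR without overlap at 10 of them, Adgre1, Cd68, Csf1r, Csf2ra, Fcgr1, Itgam, Msr1, Ncf1, Ncf4 and Ptprc, and higher at 0. That is 40% of the list, beside 18.7% of all genes, and the median log2 difference was -0.08 against -0.04. No region of the list was called by limma, and 0 regions were group-only. The count was 6 with lists of equal length, against 15% of all genes, and 3 with fold as deposited, against 6.3%. The difference farthest from 0 was at Adgre1, which encodes the macrophage marker F4/80. Its relative fold was 0.713, 0.706 and 0.711 in DTR and 0.767, 0.835 and 0.831 in WT. Adgre1 was lower in every DTR library with relative fold, fold as deposited and lists of equal length. Ncf4, an oxidase subunit, had 0.821, 0.857 and 0.873 in DTR and 0.924, 0.987 and 0.873 in WT. DTR 3 and WT 3 of Ncf4 were nearly equal.

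The 12 genes of heme and iron recycling, the programme of Spi-C macrophages, had no called and no group-only region. A gene-end peak was present in all 6 libraries at 9, beside 59% of all protein-coding genes. These 9 include Hmox1, which degrades heme, and Slc40a1, the iron exporter ferroportin. Fth1, Hmox1, Nfe2l2 and Slc11a1, 4 genes in all, had lower relative fold in DTR without overlap, and 0 had higher. They are 33.3% of the list, beside 18.7% of all genes lower and 3.19% higher. With fold as deposited the count was 0, beside 6.3%. The median log2 difference was -0.04, the same to 2 decimals as that of all genes. Slc40a1 had the difference farthest from 0, 0.24 on the log2 scale, but its libraries overlapped, with 1.16, 1.24 and 0.935 in DTR and 1.06, 0.792 and 0.959 in WT. Fth1, the ferritin heavy chain, had 0.937, 0.919 and 0.924 in DTR against 1.02, 0.949 and 1.01 in WT.

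The 16 Spi-B genes of B cells and plasmacytoid dendritic cells had 11 with a gene-end peak in all 6 libraries. Over all protein-coding genes the share was 59%. Of the 15 compared in fold, 0 were lower and 1, Cd22, was higher in DTR without overlap, beside 18.7% lower and 3.19% higher among all genes. The median log2 difference was -0.02, and it was 0.01 with fold as deposited. No region was called by limma, and 2 of its 133 regions were DTR-only. That in Bach2, a repressor of plasma cell differentiation, at chr4:32551414-32551620, had fold 5.004, 5.18 and 4.75 with −log10 q of 12.8 to 13.6. It was the strongest of the 8 DTR-only regions over the lists. The other lay 9655 bp from Tlr7, an endosomal RNA sensor, with −log10 q of 3.07 to 7.69.

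The 23 other ETS genes held, among 229 regions, the remaining 4 that were DTR-only, 2 near or in Erg and 1 each in Fli1 and Etv6. Erg and Fli1 act in stem cells, megakaryocytes and endothelium, and Etv6 is a repressor needed for haematopoiesis. The regions at chr16:95349914-95350755 and chr16:95442038-95442304 of Erg had −log10 q of 6.62 to 7.64 and 4.47 to 10.1. Those in the gene bodies of Fli1, chr9:32529763-32530064, and Etv6, chr6:134097002-134097185, had 2.96 to 5.34 and 3.80 to 6.64. Of the 23 genes, 6 (Elf1, Elk3, Etv3, Etv5, Etv6 and Gabpa) had lower relative fold in DTR without overlap and 0 had higher, which is 26.1% beside the 18.7% of all genes lower and 3.19% higher. With fold as deposited, Etv3 was the only one, beside 6.3% of all genes. The median log2 difference was -0.05. Over the 5 lists, 8 regions were DTR-only and 0 were WT-only, beside 0.821% and 0.0992% of all regions of the genome. The DTR-only regions were 2 of 134 for the PU.1 partners, 0 of 217 for the targets, 0 of 70 for the iron list, 2 of 133 for the Spi-B genes and 4 of 229 for the other ETS genes.

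Marker genes were checked against the cell type label by gene-end peaks. All 8 classical monocyte markers had one in all 6 libraries. Of the B cell markers 4 of 8 did and 4 of 8 had none in any library, among them Pax5 and Ms4a1. A gene-end peak in all 6 libraries was found for 3 of 6 plasmacytoid dendritic cell, 4 of 6 red pulp macrophage, 3 of 6 erythroid, 3 of 6 neutrophil, 2 of 6 T and NK cell and 2 of 6 megakaryocyte markers. Over all protein-coding genes the share was 59%. No region at any marker list was called by limma, and no region was listed by all 3 libraries of 1 group and by no library of the other. Peaks cannot show how many cells of a type were present.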

How the data were processed

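ATAC-seq libraries of mouse blood monocytes were made with digitonin and Tn5, 3 from DTR and 3 from WT mice, and the deposited broad peak list of each was used. Per the submitters' processing notes the tools were fastp, Bowtie, Bowtie2 2.4.4 and MACS2; the genome build, any Tn5 shift and any control were not given in the sources used here. Each deposited list belongs to 1 library; how libraries were combined, if at all, is not stated by the authors' labels. The deposited columns used were the fold over local background (a ratio) and the −log10 p and −log10 q values; the deposited score column was not used. The files hold no read counts, so depth is unknown, and missing peaks cannot be told from shallow sequencing.

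Peaks on the assembled chromosomes were merged into regions (overlap of 1 bp or touching). Gene bodies came from the RefSeq gene table of GRCm38.p6, whose fit was checked with its promoters: 41.1% overlapped a peak in all 6 libraries, and 4.12% and 4.25% did after shifts of 5000 and 20000 bp. Loci were compared by exact permutation tests and shared regions by limma 3.58.1 (R 4.3.3), on log2 fold centred on the library median and on log2 bp under peaks, with Benjamini-Hochberg adjustment and a threshold of 0.05; the limma script was tested on simulated data. Alternatives were the gene body alone or with 25 kb, peaks lying mostly inside the locus, a stricter q of 1e-05, lists of equal length, joined peaks, uncentred or highest fold, a trend in eBayes, a replicate block and leaving out each library.

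The members and gene lists were chosen with earlier results of these data known. Named genes were the members with every region of their loci, the 3 genes nearest to each, overlapping neighbours, and from each list the genes with a called or group-only region, or else the 2 with the largest absolute locus fold difference; genes named in counts of non-overlap were chosen after their values were seen. Sequences are from the RefSeq promoter table; no entry was matched for Spi1, and the planned protein alignment was not run.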

Additional observations from a re-analysis of the deposited data

How the results depend on the processing

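Of 593 alternative values over 54 results, 538 were scored as unchanged. For limma estimates this meant the same direction and the same side of the threshold. The locus tests could not pass 0.05 in any setting, so only their direction could change. A peak number difference of 0, as at Spib and Spic, could not be scored as reversed. Counts were scored by their size. The Spi1 peak number difference of 0.333 became -0.667 with lists of equal length and ranged from -0.333 (without WT 1) to 0.667 with single libraries left out; Spi1 covered length became -171 bp with lists of equal length and ranged from 510 to 825 bp with libraries left out. Spib relative fold, -0.0335, became 0.0114 in the gene body alone and 0.0142 by the highest fold, and ranged from -0.117 to 0.0166 (without DTR 2). Spic covered length became 0.667 bp in the gene body alone. Member regions called by covered length ranged from 0 to 1 with libraries left out. DTR-only regions of the 5 lists, 8, were 4 with lists of equal length and 9 to 14 with libraries left out; WT-only regions, 0, were 5 and 0 to 3. Genes apart and lower in fold numbered 10, 7, 6 and 4 for targets, partners, other ETS factors and the iron list. As deposited they were 3, 1, 1 and 0, beside 6.3% of all genes. With lists of equal length they were 6, 6, 4 and 3, beside 15% of all genes. Apart and higher as deposited were Cd22 and Tlr7 of the Spi-B list and Mrc1 of the targets, beside 6.94% of all genes. With lists of equal length Cd22, Tlr7 and the partner gene Gata2 were higher, beside 4.81%. These alternatives were chosen after seeing the data. As deposited, the log2 fold difference of Spi1 regions starting at 91080965, 91089035, 91101501 and 91124776 became 0.0236, 0.0228, 0.0044 and 0.0317, and that of the last was 0.00168 by the highest fold. With libraries left out, log2 estimates that crossed 0 in fold ranged, in order of position, from -0.0501 to 0.0134, -0.0468 to 0.0124, -0.0791 to 0.0322, -0.000479 to 0.121, -0.0302 to 0.0857, -0.257 to 0.0287 and -0.0545 to 0.0712 at Spi1 (regions 1, 5, 8 and 10 to 13) and -0.0901 to 0.0186, -0.0572 to 0.163, -0.0285 to 0.0284 and -0.0778 to 0.0615 at Spib (regions 1 to 4), and in covered length from -0.0336 to 0.159, -0.0922 to 0.181 and -0.00286 to 0.0441 at Spi1 (regions 5, 7 and 9) and -0.0131 to 0.069 at Spic (region 1). The causes were not tested. The replicate block gave an exact sign-flip p of 0.25, its smallest, for covered length at Spi1 (656 bp) and Spic (-118 bp). It gave the same p for relative fold at Spi1 (-0.0446) and Spic (0.0674). The block called 0 member regions. Over all regions it called 0 by covered length in place of 132 and 16. Same-numbered libraries deviated together little over all shared regions (r of 0.00, 0.07 and -0.03 in fold). This cannot decide whether the numbers pair them, and the labels do not say. With the block, the Spic promoter region had a log2 covered length difference of -0.28 (unadjusted limma p of 0.00628, adjusted p of 0.544). Without the block its unadjusted limma p was 0.142. Depth is unknown, which limits every absence of a peak.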
